A study of Homo sapiens with 4 samples.

Results

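Transcript levels of 10 immune checkpoint ligands and related surface or secreted proteins were examined in 2 human triple-negative breast cancer (TNBC) cell lines treated with mebendazole (MBZ), an anthelmintic drug that binds tubulin. The genes were CD274, PDCD1LG2, CD276, VTCN1, NT5E, CD47, LGALS9, PVR, NECTIN2 and ULBP2, chosen as molecules through which a tumor cell meets lymphocytes or macrophages. All 10 were found by Ensembl identifier among the 58735 gene entries of the read count table. MDA-MB-231 and SUM159 cells were each exposed for 72 h to 1 µM MBZ or to DMSO, the solvent control, and 1 RNA-seq library was made per condition, giving 4 libraries. MDA-MB-231 came from a commercial cell bank and SUM159 from another laboratory, and both are established tumor cell lines grown in culture. With 1 library per condition, a difference between MBZ and DMSO has no replicate check. The intervals given are 95% Clopper-Pearson intervals that cover counting error only, and since PCR copies of a molecule cannot be recognized in these reads, the true error is at least as large.

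Checkpoint ligands sit on tumor cells and bind receptors on immune cells. PD-L1 (CD274) and PD-L2 (PDCD1LG2) engage PD-1 on T cells and restrain them, CD47 engages SIRPα on macrophages and restrains phagocytosis, and CD73 (NT5E) converts extracellular AMP to adenosine, which dampens T cells through adenosine receptors. Other ligands in the group can act in the opposite sense. PVR and NECTIN2 bind the activating receptor DNAM-1 as well as the inhibitory receptor TIGIT and its relatives, and ULBP2 is a stress-induced ligand of NKG2D, an activating receptor of natural killer cells.

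Library totals ranged from 17143139 to 24897586 counts, and 3 counts corresponded to 0.129 to 0.181 CPM (counts per 1e6 counts, TMM scaled), which was taken as the detection limit. The labelled identity was checked on marker genes. ESR1 had 0 to 18 counts and PGR had 0 counts in all 4 libraries, ERBB2 was present at 1216 to 1996 counts, and the mesenchymal gene VIM had 20703 to 54409 counts. Of 8 leukocyte markers, CD3E and MS4A1 had 0 or 1 count in every library, whereas PTPRC (216 counts) and CD14 (477 counts) were present in SUM159 under DMSO and lower under MBZ (60 and 110 counts). In MDA-MB-231, PTPRC had 8 and 23 counts under DMSO and MBZ, CD14 had 53 and 40, and ITGAM had 0 and 17. The summed level of the 8 markers was 2.67 CPM under DMSO and 4.26 CPM under MBZ in MDA-MB-231, and 44.6 and 12.1 CPM in SUM159. Their part in the differences below was not tested. In these bulk libraries, fewer cells with a transcript and less transcript per cell cannot be told apart.

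A gene was called changed within a line when its level differed at least 1.5-fold between the MBZ and DMSO libraries and its mean was at least 10 counts. Of the 9 ligand genes that met the count minimum, 3 were higher under MBZ in MDA-MB-231 (CD274, PDCD1LG2 and ULBP2) and 2 lower (LGALS9 and NT5E). Across all 15142 genes compared in that line, 18.3% were higher, 15.8% lower and 34% changed in either direction by the same rule. In SUM159, 3 of 9 were higher (CD274, NT5E and ULBP2) and 1 was lower (LGALS9), against 21.5% higher, 21.7% lower and 43.2% in either direction of 15674 genes. CD274 and ULBP2 were higher in both lines, as were 6.12% of the 13733 genes compared in both, and LGALS9 was lower in both, as were 4.71%. Changes of like direction thus covered 3 of the 9 ligand genes and 10.8% of all genes. NT5E changed in opposite directions, as did 6.04% of those genes. Between the lines under DMSO, 3 of the 9 ligand genes were at least 1.5-fold higher in SUM159 (PDCD1LG2, CD276 and LGALS9) and 2 were lower (NT5E and NECTIN2), while 31% of 15559 genes were higher, 30.6% lower and 61.6% different in either direction. For the response to MBZ, the median log2 fold change of the 9 genes was -0.22 in MDA-MB-231 and 0.50 in SUM159, while the medians over all genes were -0.018 and -0.034.

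**Figure D1:**
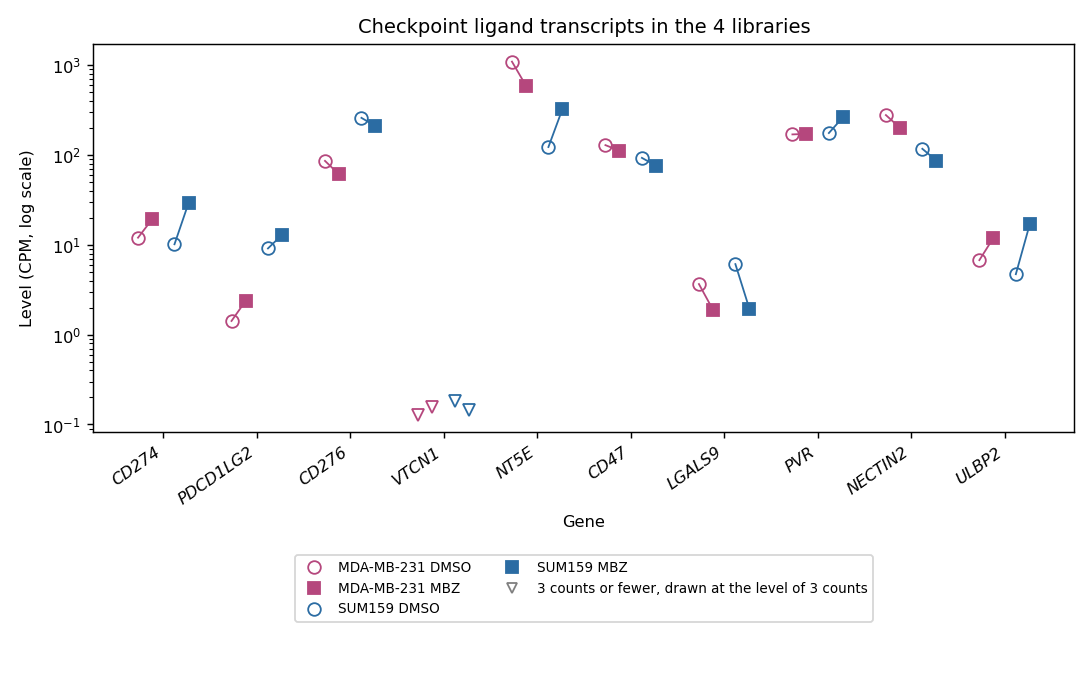
Level of each ligand transcript in the 4 libraries, in CPM on a log axis, with open circles for DMSO and filled squares for MBZ, lines joining the libraries of one cell line. CD274 and ULBP2 rise from DMSO to MBZ in both lines, LGALS9 declines in both, NT5E moves in opposite directions, and VTCN1 stays at or under 3 counts (triangles drawn at that limit).

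CD274 (ENSG00000120217), which encodes PD-L1, lies on chromosome 9 at 5450503 to 5470566 of GRCh38 in GENCODE. A stretch of 200 bases from 250 to 51 bases before its RefSeq start, which is at 5450542, is printed because CD274 was higher in both lines and its promoter is known to answer interferon signalling. The window comes from the RefSeq promoter table (GRCh38.p14, plus strand, chr9:5450292-5450491).
CD274: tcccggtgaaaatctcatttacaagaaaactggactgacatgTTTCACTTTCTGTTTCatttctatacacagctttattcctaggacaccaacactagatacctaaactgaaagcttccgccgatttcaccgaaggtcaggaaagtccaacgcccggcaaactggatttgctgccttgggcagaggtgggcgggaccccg
The capitals mark 2 overlapping matches, on the minus strand, of the core of the interferon-stimulated response element (GAAA and GAAA with 2 bases of any kind between them), 208 and 202 bases before the RefSeq start. Both strands were searched, and 2.39% of 35116 promoter windows of the same length hold this core.

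CD274 had 279 counts (12 CPM) under DMSO and 365 counts (19.2 CPM) under MBZ in MDA-MB-231. In SUM159 it had 168 counts (10.1 CPM) under DMSO and 600 counts (29.1 CPM) under MBZ. The MBZ library was therefore the higher in each line, and both MBZ libraries lay above both DMSO libraries. The change was 1.58-fold in MDA-MB-231 (log2 fold change 0.66, counting interval 0.43 to 0.89) and 2.87-fold in SUM159 (1.52, 1.27 to 1.78). A larger increase was seen for 16% of all genes in MDA-MB-231 and for 7.51% in SUM159. The response was larger in SUM159 by 0.86 on the log2 scale (counting interval 0.52 to 1.20). Under DMSO the lines differed little in CD274 (SUM159 over MDA-MB-231, log2 ratio -0.24, -0.53 to 0.038), and under MBZ the level was higher in SUM159 (0.60, 0.41 to 0.79).

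PDCD1LG2 (ENSG00000197646), which encodes PD-L2, begins 39964 bases downstream of the end of CD274 on the same strand of chromosome 9 (5510531 to 5571282), with no protein-coding gene between them. It had 33 and 45 counts under DMSO and MBZ in MDA-MB-231 (1.42 and 2.37 CPM), and 151 and 266 counts in SUM159 (9.12 and 12.9 CPM). The difference between the lines was the larger feature of this gene: SUM159 exceeded MDA-MB-231 6.40-fold under DMSO (log2 ratio 2.68, 2.13 to 3.27) and 5.44-fold under MBZ (2.44, 1.99 to 2.94). Its level was 1.64-fold higher under MBZ in MDA-MB-231 (0.72, 0.040 to 1.41) and 1.41-fold higher in SUM159 (0.50, 0.21 to 0.80), which is under the 1.5-fold limit. The changes of the 2 lines differed by -0.22 on the log2 scale with an interval of -0.98 to 0.53, so the low counts in MDA-MB-231 do not resolve a difference in response.

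CD276 (ENSG00000103855, chromosome 15, 73683966 to 73714514) encodes B7-H3, a B7-family protein found on many carcinomas. Its counts were 1999 and 1155 under DMSO and MBZ in MDA-MB-231 (86.0 and 60.8 CPM) and 4292 and 4318 in SUM159 (259 and 209 CPM). Both SUM159 libraries lay above both MDA-MB-231 libraries, 3.01-fold under DMSO and 3.45-fold under MBZ. The MBZ-to-DMSO log2 fold changes were -0.52 (-0.62 to -0.41) and -0.31 (-0.37 to -0.25), neither of which reached 1.5-fold, and the responses of the lines differed by 0.21 (0.089 to 0.33).

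VTCN1 (ENSG00000134258, chromosome 1, 117143587 to 117210960) encodes B7-H4, another B7-family inhibitor of T cells. It had 0 counts in both MDA-MB-231 libraries and 2 counts in each SUM159 library, at or under the detection limit in all 4. No fold change was computed.

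NT5E (ENSG00000135318, chromosome 6, 85449584 to 85495791) encodes CD73 and had the highest level per length of the ligand genes in both MDA-MB-231 libraries. It had 25454 counts (1095 CPM) under DMSO and 11234 counts (591 CPM) under MBZ in that line. In SUM159 it had 2032 counts (123 CPM) under DMSO and 6693 counts (325 CPM) under MBZ. The drug was thus accompanied by a lower level in the line where the transcript was abundant and a higher level in the line where it was scarcer, and both MDA-MB-231 libraries remained above both SUM159 libraries. The level was 1.88-fold lower in MDA-MB-231 (log2 fold change -0.91, -0.94 to -0.88) and 2.65-fold higher in SUM159 (1.40, 1.33 to 1.48). The changes of the lines differed by 2.31 on the log2 scale (2.23 to 2.39). The excess in MDA-MB-231 was 8.93-fold under DMSO and 1.82-fold under MBZ. These line ratios come from the same 4 libraries as the fold changes and are no separate evidence. In 20% of the 13733 genes the counting intervals of the lines lay on opposite sides of 0, so such a split was not rare in these libraries.

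**Figure D2:**
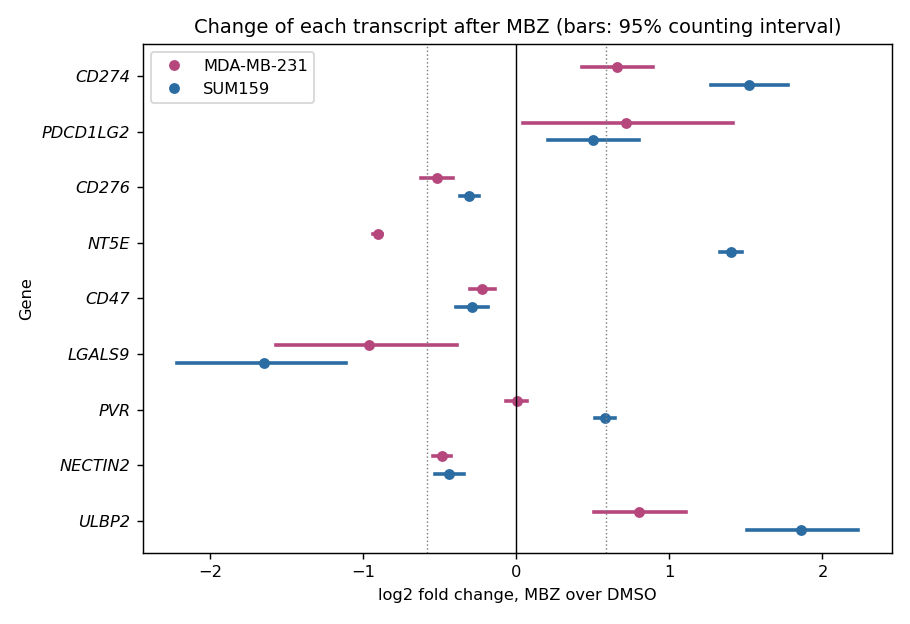
Log2 fold change of MBZ over DMSO for the 9 ligand genes above the count minimum, in MDA-MB-231 and SUM159, with bars for the 95% counting interval and dotted lines at 1.5-fold. The points of CD274 (0.66 and 1.52) and ULBP2 (0.80 and 1.86) lie right of the upper line in both cell lines. Those of LGALS9 (-0.96 and -1.65) lie left of the lower line, and those of NT5E (-0.91 and 1.40) lie on both sides. In MDA-MB-231 the bars of CD274, PDCD1LG2, ULBP2 and LGALS9 cross a 1.5-fold line.

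CD47 (ENSG00000196776, chromosome 3, 108043091 to 108091862) had 2992 and 2123 counts under DMSO and MBZ in MDA-MB-231 (129 and 112 CPM) and 1539 and 1567 counts in SUM159 (92.9 and 76.0 CPM). Its log2 fold changes were -0.22 (-0.30 to -0.14) and -0.29 (-0.39 to -0.19), and their difference of -0.068 (-0.20 to 0.063) did not separate the lines. Neither change passed 1.5-fold, and scaling by total counts instead of TMM moved them to 0.043 and 0.011, so CD47 showed no direction that held across scalings.

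LGALS9 (ENSG00000168961, chromosome 17, 27629798 to 27649560) encodes galectin-9, a carbohydrate-binding ligand of TIM-3. It had 85 and 36 counts under DMSO and MBZ in MDA-MB-231 (3.66 and 1.89 CPM) and 101 and 40 counts in SUM159 (6.10 and 1.94 CPM). Both MBZ libraries were below both DMSO libraries. The level was 1.95-fold lower in MDA-MB-231 (log2 fold change -0.96, -1.57 to -0.39) and 3.14-fold lower in SUM159 (-1.65, -2.22 to -1.11). The changes of the lines differed by -0.68 on the log2 scale (-1.51 to 0.14), an interval that includes 0, so a larger response in SUM159 was not resolved. The lines differed 1.67-fold under DMSO, with the higher level in SUM159, and the MBZ log2 ratio of 0.034 (-0.65 to 0.73) did not separate them. Of the 100-base stretches of its canonical transcript, 14.1% also occur in other genes, mainly in the overlapping entry ENSG00000266728, which had 0 counts in all 4 libraries. The paralogs LGALS9B (0 to 21 counts) and LGALS9C (0 to 2 counts) were low. Reads in sequence shared between genes may be missing from all of these counts, so part of the LGALS9 count is uncertain.

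PVR (ENSG00000073008, chromosome 19, 44643798 to 44666162) had 3940 and 3264 counts under DMSO and MBZ in MDA-MB-231 (169.5 and 172 CPM), and 2909 and 5412 counts in SUM159 (176 and 262 CPM). The SUM159 MBZ library stood above the other 3, which were nearly level. On the log2 scale MBZ over DMSO was 0.00095 for MDA-MB-231 (-0.066 to 0.068) and 0.58 for SUM159 (0.51 to 0.64), a 1.49-fold difference that lies just under the limit and passes it under scaling by total counts or DESeq2 size factors. A same-strand entry (ENSG00000279095, 185 to 580 counts) overlaps 19.4% of the exon bases of PVR and holds 33.9% of the 100-base stretches of its canonical transcript. The union mode used for counting leaves out a read that overlaps both entries, so part of the PVR count may be missing.

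NECTIN2 (ENSG00000130202, chromosome 19, 44846175 to 44889223) starts 180012 bases from the end of PVR and encodes nectin-2, a relative of PVR that shares receptors with it. It had 6465 and 3816 counts in MDA-MB-231 under DMSO and MBZ (278 and 201 CPM), and 1942 and 1784 counts in SUM159 (117 and 86.5 CPM). Both MDA-MB-231 libraries lay above both SUM159 libraries, 2.37-fold under DMSO and 2.32-fold under MBZ. The log2 fold changes of -0.49 (-0.55 to -0.43) and -0.44 (-0.53 to -0.35) did not reach 1.5-fold, and their difference was 0.049 (-0.061 to 0.16).

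ULBP2 (ENSG00000131015) lies on chromosome 6 at 149942014 to 149949235 of GRCh38. The same window before its RefSeq start is printed beside that of CD274 because it was the other ligand gene higher in both lines (RefSeq, GRCh38.p14, plus strand, chr6:149941764-149941963).
ULBP2: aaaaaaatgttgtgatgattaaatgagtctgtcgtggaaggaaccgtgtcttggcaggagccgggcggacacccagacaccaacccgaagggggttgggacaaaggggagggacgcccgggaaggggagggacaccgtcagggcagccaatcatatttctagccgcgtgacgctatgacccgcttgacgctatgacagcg
No match of the interferon core, the AP-1 site (TGANTCA), the kappaB site (GGGA, any base, TT, any base, CC) or the hypoxia core (ACGTG) was found in these letters, which are held by 2.39%, 5.27%, 0.98% and 14.4% of the promoter windows. The GC content was 57.5% with 14 CpG dinucleotides, against 48% and 8 in the CD274 window.

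ULBP2 had 157 counts (6.75 CPM) under DMSO and 227 counts (11.9 CPM) under MBZ in MDA-MB-231. In SUM159 it had 78 counts (4.71 CPM) under DMSO and 353 counts (17.1 CPM) under MBZ. Both MBZ libraries lay above both DMSO libraries, as for CD274. The change was 1.75-fold in MDA-MB-231 (log2 fold change 0.80, 0.50 to 1.11) and 3.63-fold in SUM159 (1.86, 1.5 to 2.23), and it was larger in SUM159 by 1.06 (0.58 to 1.54). A larger increase was seen for 12.2% of all genes in MDA-MB-231 and 5.35% in SUM159. The order of the lines turned over between treatments: the SUM159 over MDA-MB-231 log2 ratio was -0.52 (-0.93 to -0.12) under DMSO and 0.52 (0.27 to 0.77) under MBZ. ULBP2 shares 12.1% of its 100-base stretches with its paralogs RAET1L (4 to 8 counts) and RAET1G (52 to 121 counts), so part of its count is uncertain.

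The change common to both lines was tested with edgeR's quasi-likelihood test, which modelled cell line and treatment, so that each line served as a repeat of the other. No ligand gene passed an adjusted p of 0.05 in this edgeR test or in DESeq2 with the same model, and 2 passed at an unadjusted p of 0.05 in each. Across all 16100 genes tested, 1 (0.00621%) passed the adjusted and 1150 (7.14%) the unadjusted threshold in edgeR. In DESeq2, 929 of 32295 genes (2.88%) passed the unadjusted threshold, and 45 rises and 55 falls among the 14920 genes given an adjusted p passed the adjusted one. CD274 had a shared log2 fold change of 1.13 (SE 0.38, adjusted p = 0.624 by edgeR), and its adjusted p ranged from 0.277 to 1.00 over 4 alternative settings. ULBP2 had 1.37 (SE 0.47, adjusted p = 0.624 by edgeR, 0.198 to 1.00 over the alternatives). LGALS9 had -1.27 (SE 0.58, adjusted p = 0.701 by edgeR, 0.640 to 1.00), and the other 6 compared ligand genes had adjusted p values from 0.790 to 0.943.

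**Figure D3:**
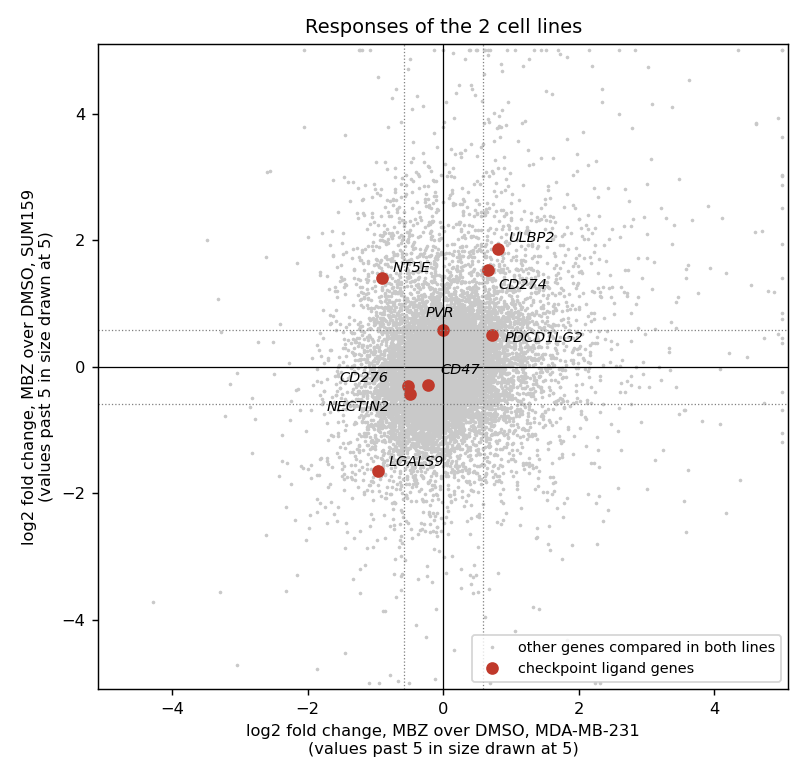
Log2 fold change of MBZ over DMSO in SUM159 (vertical) against that in MDA-MB-231 (horizontal) for genes compared in both lines, in grey, and the 9 ligand genes in red, with dotted lines at 1.5-fold. CD274 and ULBP2 lie in the upper right corner, LGALS9 in the lower left and NT5E in the upper left, and many grey points share each of those corners.

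Levels of different genes were compared per kilobase of joined exons (CPM per kb). In MDA-MB-231 under DMSO, NT5E was highest at 242 CPM per kb, followed by NECTIN2 at 74.3, PVR at 16.3, CD276 at 15.7 and CD47 at 15.6. On this length, neighbours among those last 3 levels differed by less than counting error. ULBP2 (5.06), CD274 (2.92), LGALS9 (0.640) and PDCD1LG2 (0.584) were lower, the last pair within counting error of each other. Under DMSO the SUM159 order began instead with CD276 at 47.3 CPM per kb, NECTIN2 at 31.3 and NT5E at 27.1, and ended with ULBP2 at 3.53, CD274 at 2.47 and LGALS9 at 1.07 above VTCN1. Under MBZ, NT5E led in SUM159 as well at 71.6 CPM per kb, CD276 followed at 38.2 and PVR at 25.2. CD274 stayed among the lower levels in each library, at 4.67 CPM per kb in MDA-MB-231 and 7.08 in SUM159 under MBZ. Some of these levels depend on the length used, and the length of the canonical transcript alone was tried after the data were seen. LGALS9 was then 2.12 CPM per kb in MDA-MB-231 under DMSO, apart from PDCD1LG2 at 0.584, and PVR (29.3), CD276 (26.1) and CD47 (24.3) differed by more than counting error. In SUM159 under DMSO, LGALS9 took rank 7 in place of rank 9 at 3.54 CPM per kb, within counting error of PDCD1LG2 (3.75) and ULBP2 (3.53). CD274 at 2.79 became the lowest above VTCN1, within counting error of ULBP2. Under MBZ, LGALS9 exchanged places with PDCD1LG2 in MDA-MB-231 and CD47 with ULBP2 in SUM159, and both new orders were within counting error. NT5E stayed first in both MDA-MB-231 libraries and in SUM159 under MBZ on either length.

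**Figure D4:**
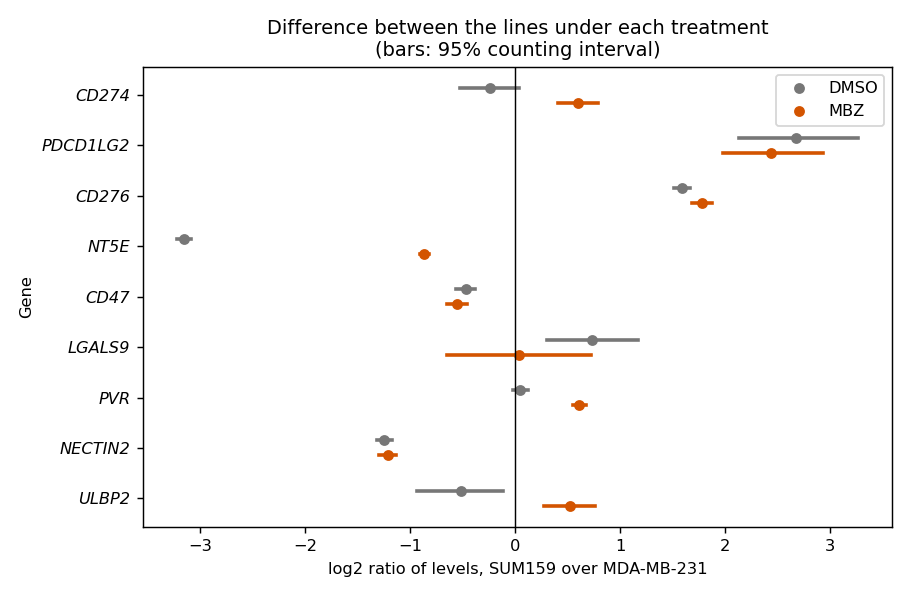
Log2 ratio of SUM159 over MDA-MB-231 levels for the 9 ligand genes under DMSO (grey) and MBZ (orange), with bars for the 95% counting interval. NT5E moves from -3.16 to -0.86, ULBP2 from -0.52 to 0.52 and CD274 from -0.24 to 0.60, CD276 goes from 1.59 to 1.78, and the ratios of PDCD1LG2, CD47 and NECTIN2 have overlapping bars under both treatments.

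Among ligand genes averaging 100 counts or more, the 3 whose level varied most over the 4 libraries were taken, and for each the 2 genes with the nearest profile were sought among 11151 genes, by the Euclidean distance of centred log2 CPM. NT5E was most like ATAD2 (distance 0.10) and TOP2A (0.117). ATAD2, a chromatin protein, had log2 fold changes of -0.87 and 1.29 in MDA-MB-231 and SUM159, and TOP2A, a DNA topoisomerase of dividing cells, had -1.01 and 1.28. PDCD1LG2 was nearest to PGGHG (0.0635) and GFPT2 (0.277), and CD276 to PIGN (0.140) and BBLN (0.143). The distance describes 4 libraries and was not tested.

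Other genes of the same pathways were counted in lists. Among 12 B7 and butyrophilin genes, 7 were compared in each line. In MDA-MB-231, 4 of them were higher and 0 lower, and in SUM159 0 were higher and 3 lower. Over all genes, MDA-MB-231 had 18.3% higher and 15.8% lower, and SUM159 had 21.5% and 21.7%. Scaling by total counts gave 6 higher in the first line, and 1 higher and 3 lower in the second. The median log2 fold changes were 0.65 and -0.57. NCR3LG1, which encodes the NKp30 ligand B7-H6, had the largest change in MDA-MB-231 (36 and 90 counts, 1.59) and was 0.13 in SUM159. VSIR, which encodes the T cell inhibitor VISTA, had 316 and 685 counts in MDA-MB-231 (1.39) and 1230 and 694 counts in SUM159 (-1.14). BTN3A3, a butyrophilin, was likewise opposite (0.86 and -2.12), and its close paralogs leave its count uncertain.

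Regulators of PD-L1 gave 1 gene higher and 1 lower in MDA-MB-231, and 1 higher and 4 lower in SUM159, of 16 compared in each. Over all genes, 18.3% and 15.8% were higher and lower in the first line, and 21.5% and 21.7% in the second. DESeq2 size factors gave 0 higher and 2 lower regulators in MDA-MB-231, and scaling by total counts gave 2 higher there and 3 lower in SUM159. JAK2, the kinase downstream of the interferon-γ receptor, lies 320.6 kb from CD274 on chromosome 9. It was higher in MDA-MB-231 (log2 fold change 0.61, a call lost with DESeq2 size factors) and lower in SUM159 (379 and 173 counts, -1.45), and its part in the level of CD274 was not tested. IRF1 (0.40 and 0.25) and CMTM6, which stabilizes PD-L1 protein (-0.10 and -0.06), did not reach 1.5-fold in either line. The gene that changed most in MDA-MB-231 was CMTM4 (-1.05), a relative of CMTM6.

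In the adenosine pathway list of 13 genes, 9 were compared in MDA-MB-231 with 3 higher and 2 lower, and 8 in SUM159 with 2 higher and 2 lower. Over all genes, 34% changed in either direction in MDA-MB-231 and 43.2% in SUM159. The receptor ADORA2B had log2 fold changes of -0.00 and 1.14 in MDA-MB-231 and SUM159, and the receptor ADORA2A was higher in SUM159 (8 and 28 counts, 1.48). ENTPD1, which encodes the enzyme CD39 that acts before CD73, did not reach 1.5-fold (0.27 and -0.38). ADA, which removes adenosine, changed oppositely to NT5E, with 0.98 in MDA-MB-231 (22 and 36 counts) and -1.37 in SUM159 (1294 and 623 counts). The named genes of largest change were DPP4 in MDA-MB-231, which began at the detection limit (3 and 37 counts, log2 fold change 3.84 with a counting interval of 2.24 to 6.24), and ADORA1 in SUM159 (63 and 9 counts, -3.10).

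Of 8 phagocytosis genes, 1 was lower and 0 higher in MDA-MB-231, and of the 7 compared in SUM159, 4 were lower and 0 higher. Over all genes, 15.8% were lower in MDA-MB-231 and 21.7% in SUM159. Scaling by total counts left the lower calls at 1 and 4 and gave 1 higher in MDA-MB-231. SIRPA, the receptor of CD47, was lower in MDA-MB-231 (26 and 6 counts, log2 fold change -1.82) and abundant in SUM159 (3375 and 3079 counts, -0.45). THBS1, another partner of CD47, was lower in SUM159 (-1.30), and QPCTL, the enzyme that modifies CD47 for SIRPα binding, was 0.29 and 0.11. CD24, a separate inhibitor of phagocytosis with known processed pseudogenes, had 1900 and 235 counts in SUM159 (-3.33). The list also held LRP1 (0.27 in MDA-MB-231 and -2.06 in SUM159) and B2M (0.07 and -0.97), both called lower in SUM159.

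Among the NKG2D ligands other than ULBP2, 0 of 5 compared genes were higher in MDA-MB-231 and 2 of 6 in SUM159 (2 and 3 under scaling by total counts), and 0 were lower in either. Over all genes, 18.3% and 21.5% were higher. MICB had log2 fold changes of -0.16 and 1.00 in MDA-MB-231 and SUM159, MICA 0.22 and 0.35, and ULBP3 0.54 and 0.25. MICA and MICB are close paralogs, so part of their counts is uncertain. RAET1E was 0.80 in SUM159 (72 and 156 counts), and ULBP1 had 0 counts in both MDA-MB-231 libraries and 41 and 40 in SUM159. The list of 4 nectins and nectin-like genes gave NECTIN1 at -0.60 and 0.45, NECTIN3 at -0.16 and -0.09, CADM1 at 0.60 and -0.59, and NECTIN4 at 1.72 in SUM159 from 6 and 25 counts. The changes of NECTIN1 in MDA-MB-231 and of CADM1 in both lines lay near the limit, and each lost its call under at least 1 other scaling.

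The 6 TNF-family genes gave 0 calls among 4 compared in MDA-MB-231, where TNFSF18 had the largest difference (-0.49), and 2 higher and 1 lower among 5 in SUM159. Over all genes 34% and 43.2% changed in either direction, and scaling by total counts gave 1 higher TNF-family gene in MDA-MB-231 and 3 in SUM159. The larger increase in SUM159 was CD70 (15 and 58 counts, 1.63). The galectin list without LGALS9 also held LGALS3BP, which encodes a galectin-binding protein and not a galectin. In MDA-MB-231, 2 of 5 compared were lower, with LGALS1 at -0.79. That count was 0 under scaling by total counts, 1 with a prior count of 2 and 3 with DESeq2 size factors. In SUM159, 1 of 4 was lower, LGALS3BP at -1.09, so no galectin of this list was called there. Over all genes, 15.8% and 21.7% were lower. LGALS1 was 0.56 in SUM159.

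In a list of 14 checkpoint receptors, 3 met the count minimum in MDA-MB-231 and 4 in SUM159. SIRPA was counted above with the phagocytosis genes and is not in this list. PDCD1 had 0 to 2 counts, and CTLA4 and TIGIT had 0 counts in all 4 libraries. HAVCR2, which encodes TIM-3, the receptor of galectin-9, was lower in SUM159 (13 and 9 counts, -0.84), with a counting interval of -2.25 to 0.49 that includes 0, and scaling by total counts ended this call. CD160 was lower in MDA-MB-231 (22 and 6 counts, -1.58) and LAG3 higher in SUM159 (9 and 55 counts, 2.28). CD96, a receptor of PVR, was named after its values were seen: it had 1244 and 408 counts in MDA-MB-231 (53.5 and 21.5 CPM, -1.34) and 0 and 2 in SUM159.

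**Figure D5:**
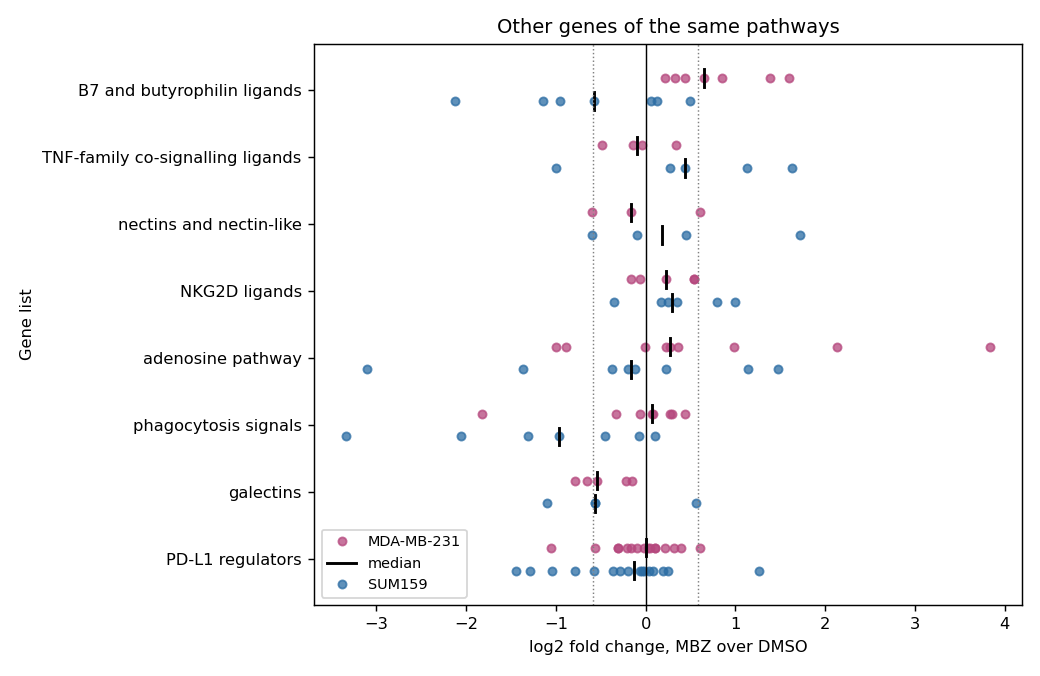
Log2 fold change of MBZ over DMSO for the compared genes of 8 pathway lists in MDA-MB-231 and SUM159, with a black bar at each list's median and dotted lines at 1.5-fold. The B7 and butyrophilin genes lie above 0 in MDA-MB-231 (median 0.65) and mostly below it in SUM159 (median -0.57), and the phagocytosis genes have a median of -0.97 in SUM159.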

How the data were processed

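RNA-seq was performed on poly-A mRNA from 4 cell cultures, 1 library for each line and treatment. The authors aligned paired reads to GRCh38/hg38 with STAR, and the deposited values are raw counts for each gene, obtained by the authors with the union mode of HTSeq. The annotation release and strand setting are not given in the sources used here. Of 58735 gene entries, 58207 were matched to symbols by Ensembl identifier, and gene positions were taken from the GENCODE annotation of GRCh38. Levels are CPM with TMM scaling over the 4 libraries (edgeR 4.0.16, R 4.3.3). Fold changes within a line used TMM over its 2 libraries and a prior count of 0.125, with 95% Clopper-Pearson intervals for counting error. A call needed a fold change of 1.5 and a mean of 10 counts. The shared change was tested by the edgeR quasi-likelihood F-test, adjusted by the Benjamini-Hochberg method over all genes that passed filterByExpr. The p-values measure the spread between lines. DESeq2 1.42.0, other scalings, filters and thresholds were tried as alternatives. The scripts were tested on simulated data. Ligand genes, lists and tests were chosen with earlier results of these data known. From each list, genes called the same way in both lines, the gene of largest change per line and direct partners or paralogs of the ligands were named, together with a few other genes of each list picked after their values were seen. In the lists outside the ligand genes, VIM alone was called the same way in both lines. Values of some listed genes are not reported here.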

Additional observations from a re-analysis of the deposited data

Results flagged for a closer look

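NT5E, the gene of the adenosine-producing enzyme CD73, changed in opposite directions in the 2 lines. Its log2 fold change of MBZ over DMSO was -0.91 in MDA-MB-231 and 1.4 in SUM159. The difference between the lines was not tested, since each line had 1 library per treatment. Of all genes compared in both lines, 6.04% changed at least 1.5-fold in opposite directions.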

How the results depend on the processing

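Of 72 fold changes of ligand genes recomputed within a line, 58 stayed within the counting interval of the reported value and 14 lay outside it. No ligand gene called changed turned its direction, while the small values of CD47 in both lines (scaling by total counts) and of PVR in MDA-MB-231 (-0.049 with DESeq2 size factors) changed sign. Of the 36 shared changes under other settings, 1 reversed, that of NT5E, which was 0.28 as reported and -0.37 in a model with treatment only. The number of ligand genes changed in MDA-MB-231 was 5 as reported, 0 at a fold limit of 2 and 3 at a mean of 100 counts. The number changed the same way in both lines was 3 as reported and 0 at a fold limit of 2. It was 2 at a mean of 100 counts, where LGALS9 was no longer compared, and 4 under scaling by total counts, which added PDCD1LG2. Scaling by total counts moved the median over all genes by 0.27 (MDA-MB-231) and 0.30 (SUM159), and added PDCD1LG2 and PVR to the 4 calls in SUM159. Across all genes, the shared test gave 1 rise and 0 falls as reported, 153 rises and 145 falls of 32295 genes without a filter on low counts, 0 and 0 with treatment only, and 45 and 55 with DESeq2. No paired analysis was possible because the labels give a single replicate number, beyond the cell line term that the shared test already holds. With 1 library per condition, no library could be left out. Depth limits PDCD1LG2 in MDA-MB-231, LGALS9 in all 4 libraries and VTCN1, which was not detectable.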
